A study of Mus musculus with 4 samples.

Results

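Ribosomal protein pseudogenes are the rows of the lens FPKM table whose biotype holds the word pseudogene and whose name begins with Rpl or Rps and carries the ending -ps and a number. By this rule 314 of the 56748 rows were members, of which 305 were annotated as processed and 9 as transcribed processed pseudogenes. The names pointed to 64 parents, and 62 of these had a protein-coding row of their own, with 1 to 24 pseudogenes each. The rows were chosen by name and biotype, and no single row was selected on a measured value, but the subject itself was chosen by the low FPKM of Rps26-ps1 in mutant lenses, so the values of that row are a description and its inclusion in a count supports nothing.

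The lenses came from mice of 10 to 12 days, and each library held the lenses of several mice pooled. The 2 mutant libraries were Fsp1-cre;Pdgfrb+/D849V, in which Cre recombinase under the Fsp1 promoter switches on 1 copy of the activated receptor PDGFRβ D849V from the Pdgfrb locus. The 2 control libraries are labelled Fsp1-cre;Pdgfrb+/+, whereas the methods of the study state that the control pools also took in Cre-negative mice, with either Pdgfrb+/+ or Pdgfrb+/D849V. The Cre line is not restricted to the lens, and the colony was bred into FVB/N with a Rosa-LSL-tdTomato reporter. With 2 pools a group, p-values of the limma fits below rest only on the spread between pools, drawn in part from all rows tested. They say nothing of the spread between single mice. In whole lenses fewer cells of a type and less RNA per cell cannot be told apart.

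A processed pseudogene arises when a messenger RNA is copied back into DNA and inserted elsewhere in the genome, so it lacks the introns of its parent and usually its promoter. Ribosomal protein genes, whose products build the small (Rps) and large (Rpl) subunits of the cytosolic ribosome, have left more such copies in mammalian genomes than almost any other gene class, because their messenger RNAs are abundant. A short read from the coding part of a young copy can match the parent and the copy alike, and a counting program must then place it on either row, on both or on none.

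The libraries held 18561682 to 18878768 reads recovered from the FPKM values. Of 9 lens fibre markers 8 were high and Lim2 was listed at 0 in every library, with a summed level of 141943 to 167211 FPKM. The 5 lens epithelium markers summed to 128 to 154 FPKM, the 4 fibroblast markers to 4.26 to 5.91 FPKM and the 3 blood markers to 15.9 to 33.9 FPKM. The 3 vessel markers summed to 0.862 to 1.91 FPKM, and the 4 retina, 4 pigment and 3 macrophage markers to at most 1.56 FPKM a list. Xist stood at 13.1 FPKM in mutant replicate 2 and 15.6 in control replicate 1 against 7.62 and 5.56 in the other two libraries, a divide that ran across the groups.

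The sequences that matter are shown first, because they set how far a pseudogene read can be told from a parent read. All come by gene identifier from the GENCODE transcripts of GRCm38, written 5′ to 3′ on the coding strand, with differing bases in capitals and positions counted from 1 at the A of the parent's start codon. Rps26-ps1 (chromosome 8, 108165763 to 108166211, minus strand, mm39) differed from the 348 coding bases of Rps26 (chromosome 10, 128460403 to 128462616, minus strand) at 2 bases, C30T and G270A, with no gap, and neither changed an encoded residue. The windows of 60 bases from positions 1 and 240 hold these differences. Rps26-ps1 also spans bases outside the coding part, and differences there are not shown.
Rps26: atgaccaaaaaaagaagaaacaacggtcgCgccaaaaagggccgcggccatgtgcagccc
Rps26-ps1: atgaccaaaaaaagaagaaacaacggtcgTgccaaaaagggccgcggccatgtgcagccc
Rps26: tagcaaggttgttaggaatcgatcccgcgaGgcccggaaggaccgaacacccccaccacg
Rps26-ps1: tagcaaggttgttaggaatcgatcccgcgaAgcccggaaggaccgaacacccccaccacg

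Rpl34-ps1 (chromosome 6, 71101594 to 71101947, plus strand) spans only the 354 coding bases of Rpl34 and likewise had 2 substitutions that leave the protein unchanged, T132C and C318G. It is shown because its row held more reads than the parent row, and its window starts at position 78.
Rpl34: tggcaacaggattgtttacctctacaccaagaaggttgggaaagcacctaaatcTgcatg
Rpl34-ps1: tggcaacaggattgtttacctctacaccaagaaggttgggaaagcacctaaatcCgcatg

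Rps10-ps2 (chromosome 16, 20640895 to 20641390, minus strand) and Rps2-ps13 (chromosome X, 51987465 to 51988346, plus strand) are shown for the same reason. The window of Rps10-ps2 starts at position 384 and holds 4 of its 5 coding substitutions. That of Rps2-ps13 starts at position 30 and holds 2 of 7.
Rps10: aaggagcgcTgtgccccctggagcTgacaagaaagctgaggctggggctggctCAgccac
Rps10-ps2: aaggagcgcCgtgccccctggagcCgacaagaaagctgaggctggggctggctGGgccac
Rps2: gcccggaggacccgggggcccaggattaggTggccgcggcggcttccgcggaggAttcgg
Rps2-ps13: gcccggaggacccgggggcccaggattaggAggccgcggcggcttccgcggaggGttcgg

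Rps13-ps6 (chromosome 2, 143697569 to 143697996, plus strand) shows the opposite case, an old copy that carried reads although 36 substitutions and 25 gap columns set its coding part apart from Rps13. Its window starts at position 10.
Rps13: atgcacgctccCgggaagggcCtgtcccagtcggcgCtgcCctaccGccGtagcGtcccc
Rps13-ps6: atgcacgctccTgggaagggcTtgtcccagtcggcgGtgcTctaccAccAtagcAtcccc

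Reads were spread very unevenly over the ribosomal protein pseudogenes. No read fell on 155 of the 314 in any library, a read fell on 159 in at least 1, and 95 had a read in all 4. A mean of at least 10 reads was reached by 63 pseudogenes, of at least 100 by 30 and of at least 1000 by 12. The 10 with the most reads held 76.5% of all reads of the group. FPKM are fragments per kilobase of gene, divided by a size factor of each library. A mean level of at least 0.1 FPKM was the filter used for the comparison below. It was passed by 122 pseudogenes (38.9%), against 9.16% of the 13335 other pseudogene rows and 28.2% of all rows. Rpl10a-ps2 lay just inside the filter at 0.1001 FPKM and Rps12-ps1 just outside at 0.0995 FPKM.

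Rows with reads had either annotation. Of the 9 transcribed processed pseudogenes 8 had a read and 6 passed the filter, among them Rps2-ps10, Rps7-ps3 and Rps26-ps1. All other rows that passed were plain processed pseudogenes. Of the 24 pseudogenes of Rps12 16 had no read, and of the 24 of Rpl31 14 had none.

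Most reads fell on rows that resemble their parents. For each pseudogene with a parent the share of its 31-base words that also occur in a parent transcript was counted. Of the 112 pseudogenes with more than 50% of their words in the parent 97 passed the filter (86.6%), and of the 200 with 50% or fewer 25 passed (12.5%). The first class held 99.2% of all reads of the group. Some rows of the second class also had a read: 6 of 29 with no word in the parent, 17 of 106 with up to 25% and 28 of 65 with more than 25%. For 183 pseudogenes another gene shared more words than the parent did, and for 125 no gene shared more than the parent. Of the 13 whose words all occur in the parent 12 had a mean of at least 10 reads, and the remaining one, Rps23-ps1, had no read in any library. These are descriptions of the sequences and the rows, and whether a read came from the copy or from the parent was not tested.

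**Figure D1:**
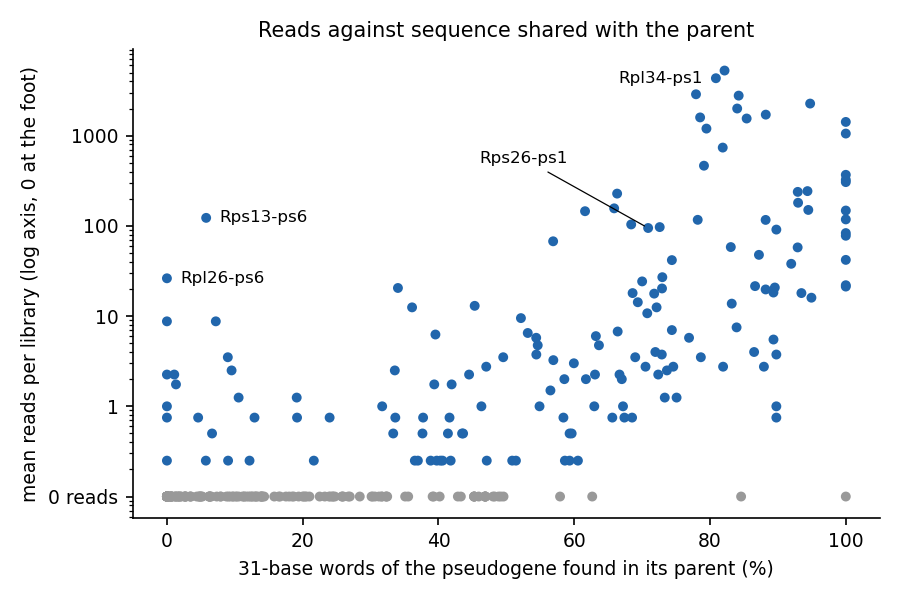
Each point is 1 of the 312 pseudogenes with a parent, plotted by the percentage of its 31-base words found in the parent (horizontal axis) and its mean reads per library (vertical log axis, grey points at the foot have 0 reads). Points with many reads lie to the right, and Rps13-ps6 and Rpl26-ps6 are the exceptions on the left.

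Among the 200 pseudogenes with 50% or fewer of their words in the parent only 5 had a mean of at least 10 reads, and the 2 with the most are named here after their values were seen. Rps13-ps6, of which 5.78% of the words occur in Rps13, had 112 and 131 reads in mutant against 142 and 106 in control lenses, so the groups overlapped. By the GRCm38 annotation it lies on the opposite strand within an intron of Bfsp1, which encodes the lens beaded filament protein filensin and stood at 3212 FPKM. The sources used here do not say whether reads were counted by strand. Rpl26-ps6 (chromosome 9), with no word in Rpl26, had 26 and 26 against 22 and 31 reads and overlapped no other row. Of the 314 pseudogenes 102 overlapped another row by position, 37 of them on the same strand.

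On 8 rows the pseudogene held more reads than its parent, in every one of the 4 libraries. By mean FPKM, which divides by gene length, 12 pseudogenes stood above their parents. The 8 rows belong to 5 parents, Rpl34, Rps10, Rps2, Rpl17 and Rps18, and all 5 had more than 50% of the reads of their family on pseudogene rows. A family here is the parent with all of its named pseudogenes.

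Rpl34-ps1 had 4951 and 4256 reads in the mutant libraries and 4038 and 4091 in the controls. Rpl34, a large subunit protein, had 54 and 63 against 86 and 66. The pseudogene row was high and the parent row low in all libraries, and in FPKM, the measure used for every statement on overlap, the groups overlapped for Rpl34-ps1. Its share of the reads of the pair was 98.9% (95% Wilson interval 98.6 to 99.2) and 98.5% (98.1 to 98.9) in mutant replicates 1 and 2. In control replicates 1 and 2 it was 97.9% (97.4 to 98.3) and 98.4% (98.0 to 98.8). Only the intervals of mutant replicate 1 and control replicate 1 were apart, and every other mutant and control interval overlapped. Intervals here and below cover counting error only. Per length the mean levels were 653 FPKM for Rpl34-ps1 and 1.35 FPKM for Rpl34.

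Rps10-ps2 had 1621 and 1550 reads in mutant against 1626 and 1578 in control lenses, and Rps10, a protein of the small subunit at the entry of the messenger RNA channel, had 32 and 21 against 26 and 32. The second copy of that gene, Rps10-ps1, also exceeded the parent, with 111 and 106 against 86 and 112. For neither copy did the groups separate.

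Rps2 had 2 copies above it. Rps2-ps10 (chromosome 18) held 4857 and 5129 reads in mutant against 5493 and 5607 in control lenses, Rps2-ps13 held 3070 and 2937 against 2341 and 3161, and Rps2, a protein of the small subunit, held 282 and 325 against 222 and 339. Rps2-ps10 was lower in both mutant libraries than in both controls by a narrow margin, with a log2 fold change of -0.13 ± 0.10 (SE, n = 2 and 2) and an adjusted p of 0.810 in limma. The copies also resemble each other: 92.7% of the words of Rps2-ps13 occur in Rps2-ps10.

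Rpl17-ps10 had 1994 and 1929 reads in mutant against 2162 and 1916 in control lenses. Rpl17-ps3 had 2058 and 1618 against 1591 and 1577, and Rpl17, which lines the exit tunnel of the large subunit, had 904 and 870 against 730 and 779. In FPKM the groups were apart for the parent and overlapped for both copies. Rps18-ps3 had 497 and 556 against 319 and 487 reads, higher in both mutant libraries, beside 285 and 289 against 210 and 273 for Rps18.

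**Figure D2:**
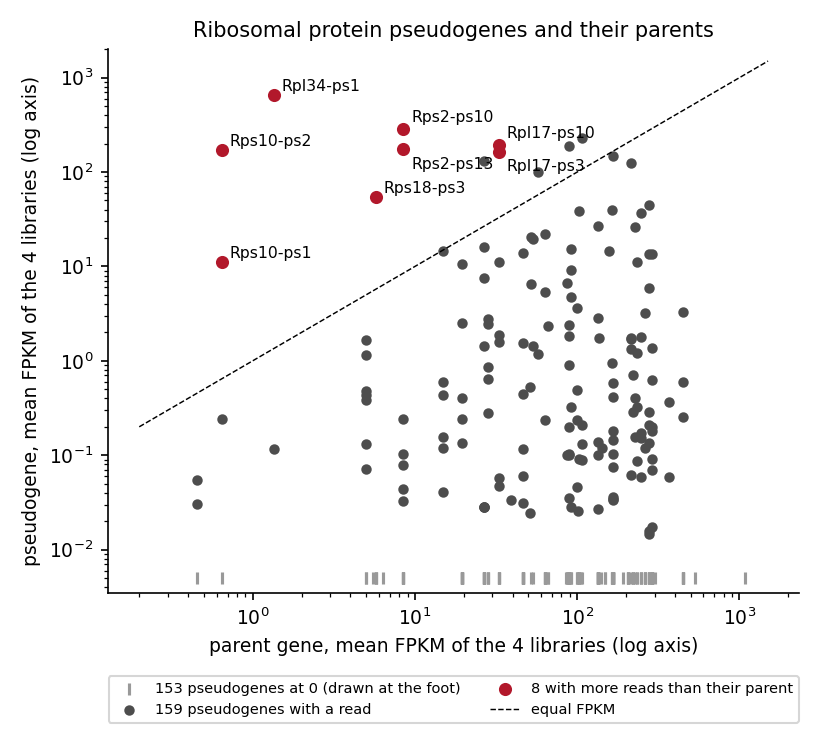
Mean FPKM over the 4 libraries of 312 pseudogenes (vertical log axis) against that of their parents (horizontal log axis), with 153 pseudogenes at 0 drawn as ticks at the foot and the dashed line marking equal values. The 8 red points, with more reads than their parents, lie above the line at the left, and most of the other points lie below it.

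These rows bear on how ribosomal protein genes read in the table. Of 79 cytosolic ribosomal protein genes, with a median of 125 FPKM, 9 stood under 10 FPKM. For 4 of these 9, Rps10, Rpl34, Rps18 and Rps2, a pseudogene row stood above the gene. The median share of family reads on pseudogene rows was 1.03% over the 62 families, and 31 families were under 1%.

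**Figure D3:**
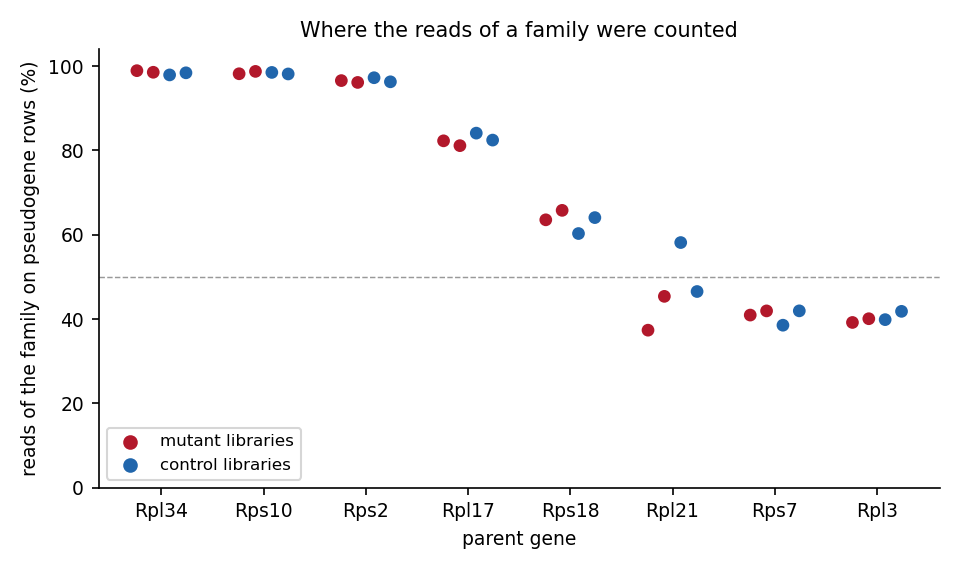
Percentage of the reads of a family counted on pseudogene rows in each library, for the 8 families with the highest share (red mutant, blue control, dashed line at 50%). The shares of Rpl34, Rps10 and Rps2 lie between 96.1% and 98.9%, and Rpl21 spreads from 37.4% in mutant replicate 1 to 58.2% in control replicate 1.

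Together the pseudogenes held 34523 and 33895 reads in mutant against 32669 and 33816 in control lenses. Of all reads on ribosomal protein genes and these pseudogenes that was 8.11% and 8.24% in mutant against 7.86% and 8.55% in control lenses. The control values enclosed the mutant values. The means were 8.17% ± 0.0902 (SD, n = 2) and 8.21% ± 0.492 (SD, n = 2), and the exact two-sided permutation test gave p = 1.0 where the smallest value it can give with 4 libraries is 0.333.

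The next comparison asked which pseudogene rows differed between mutant and control lenses. In the limma fit over all 15997 rows that passed the filter, none of the 122 pseudogenes tested had an adjusted p under 0.05, against 6 rows (0.0375%) of all. At an unadjusted p under 0.05 there were 18 pseudogenes, 11 higher and 7 lower in the mutant (14.8%), against 6.31% of all rows, of which 3.39% were higher and 2.92% lower. Without Rps26-ps1 there were 17. Of the 18, 7 had a mean under 10 reads. With limma voom on the recovered reads 8 pseudogenes (6.56%) had an unadjusted p under 0.05, against 7.43% of all rows, and 14 rows of all (0.0875%) had an adjusted p under 0.05. The only pseudogene among these was Rps26-ps1, by which the subject was chosen, so nothing is read from its call. Scaled by total recovered reads, 16 pseudogenes (13.1%) had an unadjusted p under 0.05 in limma, 8 higher and 8 lower. Of all 15997 rows so scaled 762 had one, 398 higher and 364 lower.

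The mutant and control values did not overlap for 37 pseudogenes (30.3%), 23 higher and 14 lower in the mutant. Over all rows tested the share was 36.6%, with 18.2% higher and 18.3% lower. In this fit the share of pseudogenes was below that of all rows. Scaled by total recovered reads, the groups were apart for 43 pseudogenes (35.2%), 23 higher and 20 lower. Of all 15997 rows so scaled they were apart for 5381, 2462 higher and 2919 lower, so the order of the shares depends on the scaling. The median log2 fold change of the pseudogenes was 0.05, and 0.008 when scaled by total recovered reads.

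Rps26-ps1 was the member with the widest gap among those with at least 10 reads. Its reads numbered 14 and 40 in mutant against 155 and 170 in control lenses, or 1.75 and 4.55 against 17.8 and 20.5 FPKM. Both mutant libraries were far below both controls, and they also differed from each other. The means were 3.15 ± 1.98 FPKM (SD, n = 2) and 19.1 ± 1.97 FPKM (SD, n = 2), a log2 fold change of -2.71 ± 0.43 (SE), which was -2.05 without mutant replicate 1 and -3.38 without mutant replicate 2.

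The parent row showed no such gap. Rps26, a small subunit protein at the exit of the messenger RNA channel, had 7124 and 6887 reads in mutant against 6595 and 6431 in control lenses. In FPKM its groups were narrowly apart in the other direction, at 259 and 228 in mutant against 220 and 226 in control lenses. In log2 terms Rps26 differed by 0.12 ± 0.10 (SE) with an adjusted p of 0.810 in limma. Rps26-ps1 accounted for 0.196% (95% Wilson interval 0.117 to 0.329) and 0.577% (0.424 to 0.785) of the reads of the pair in the mutant libraries. In the controls it accounted for 2.30% (1.97 to 2.68) and 2.57% (2.22 to 2.99). These intervals do not cover the spread between pools. The difference in log2 ratio was -2.85 with an SD within groups of 0.77.

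The reads that set the pseudogene apart are few beside those of its parent. Counted together, Rps26 and Rps26-ps1 had 7138 and 6927 reads in mutant against 6750 and 6601 in control lenses, with a log2 fold change of 0.09 ± 0.10 (SE) and an adjusted p of 0.847 in limma. Of the words of Rps26-ps1 70.9% occur in Rps26, 46.5% in Gm7392 and 43.2% in Gm6654, both processed pseudogenes. Gm7392 had 3, 2, 3 and 1 reads in mutant replicates 1 and 2 and control replicates 1 and 2, and Gm6654 had none. Rps26-ps1 lies on the opposite strand within an intron of Wwp2, a ubiquitin ligase gene at 2.30 FPKM. How reads with several matches were placed is not given in the sources used here, and its part in these values was not tested.

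**Figure D4:**
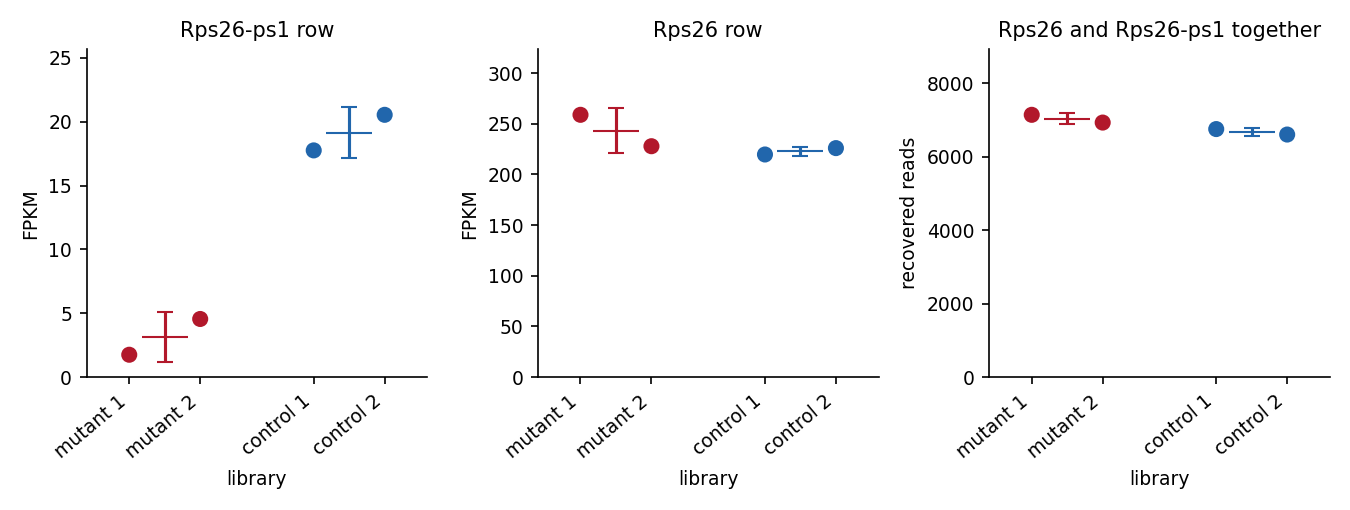
FPKM of Rps26-ps1 (left) and Rps26 (middle) and the summed reads of both (right) in the 4 libraries, with points for libraries and bars for the group mean ± SD (n = 2). The mutant points of Rps26-ps1 (1.75 and 4.55 FPKM) lie far below the control points (17.8 and 20.5 FPKM), while the other panels show no such gap.

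The other negative differences were smaller. Rps13-ps2, a copy whose words all occur in Rps13, had 68 and 51 reads in mutant against 92 and 100 in control lenses. Its log2 fold change was -0.68 ± 0.20 (SE) with an adjusted p of 0.735 in limma, beside 0.08 for Rps13, a small subunit protein with 4260 to 4890 reads. Rpl10-ps1 followed with 21 and 15 against 26 and 23 reads, Rpl3-ps2 with 22 and 25 against 33 and 28, and Rpl7-ps9 with 17 and 19 against 26 and 20. For each the groups were apart, but by as few as 1 to 3 reads, and their log2 fold changes were -0.42, -0.33 and -0.30. On leaving out each library in turn these ranged from -0.71 to -0.13, -0.40 to -0.25 and -0.44 to -0.16, and that of Rps13-ps2 from -0.95 to -0.41. The parents Rpl10 and Rpl3, large subunit proteins that reach toward the peptidyl transferase centre, and Rpl7 had log2 fold changes of 0.12, -0.01 and 0.10.

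The largest positive differences among pseudogenes with at least 10 reads and no overlap rested on low counts. Rpl17-ps8, which lies on the X chromosome on the same strand as Heph, had 24 and 27 reads in mutant against 11 and 11 in control lenses. Its log2 fold change was 1.15 ± 0.14 (SE) with an adjusted p of 0.181 in limma. Rps19-ps3 had 16 and 17 against 9 and 8 reads and a log2 fold change of 0.91 ± 0.14 (SE) with an adjusted p of 0.321 in limma. Both mutant libraries were above both controls for each, yet the parents Rpl17 and Rps19 had log2 fold changes of 0.25 and 0.00.

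Rpl10-ps5 had 19 and 34 against 14 and 16 reads, and Rpl13-ps6 had 22 and 31 against 20 and 13. Their log2 fold changes were 0.74 ± 0.26 and 0.67 ± 0.23 (SE), with adjusted p-values of 0.773 and 0.769 in limma. On leaving out each library in turn these fold changes ranged from 0.40 to 1.07 and 0.42 to 0.93. Rpl21-ps10 had 81 and 80 against 58 and 51 reads and a log2 fold change of 0.58 ± 0.11 (SE) with an adjusted p of 0.483 in limma. It was the only one of the 5 whose parent had a difference of like size: Rpl21 had 2365 and 1794 reads in mutant against 1030 and 1566 in control lenses and a log2 fold change of 0.71 with an adjusted p of 0.788 in limma.

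**Figure D5:**
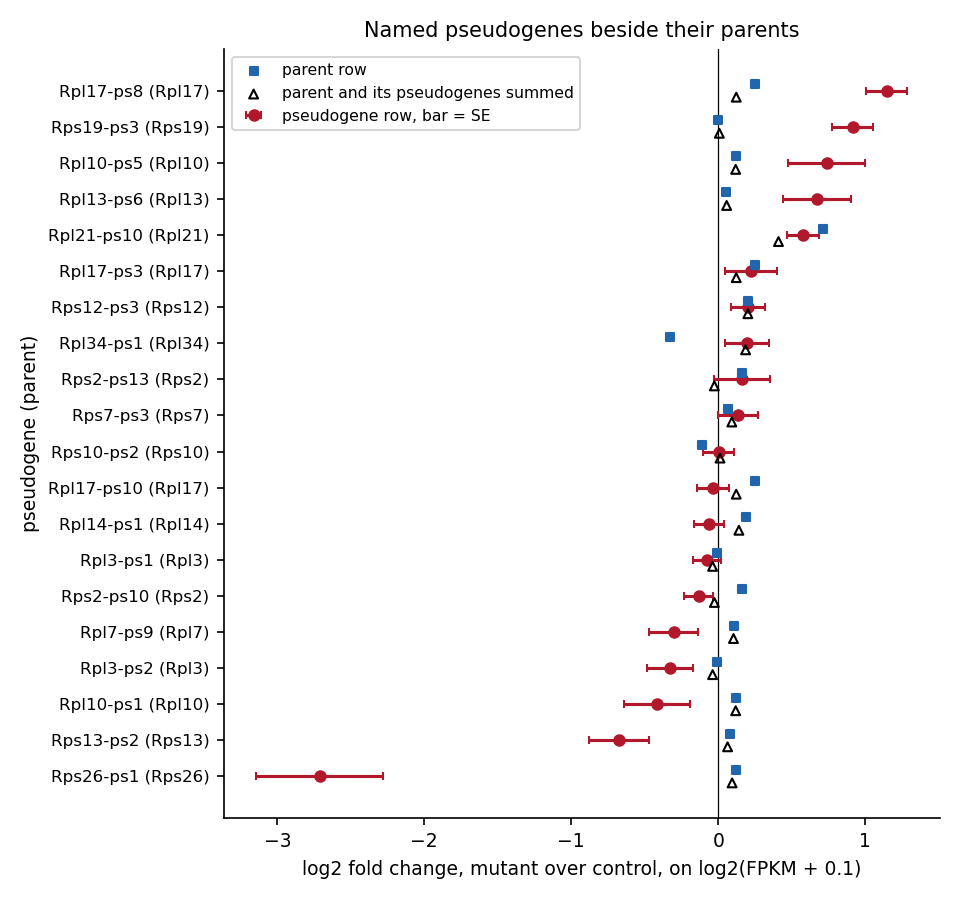
Log2 fold change of mutant over control on the log2(FPKM + 0.1) scale for the 20 named pseudogenes (red, bars SE), their parents (blue squares) and the sums of parent and pseudogenes (open triangles). Rps26-ps1 stands apart at -2.71, while the squares and triangles lie between -0.33 and 0.71.

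The pseudogenes with most reads differed little between the groups. Over the 30 with a mean of at least 100 reads the log2 fold changes lay between -0.26 and 0.43, with a median size of 0.15. Rps7-ps3 (2992 and 2792 against 2518 and 2818 reads), Rpl3-ps1 (2029 and 2363 against 2293 and 2393) and Rpl14-ps1 (1530 and 1481 against 1672 and 1517) had log2 fold changes of 0.14, -0.08 and -0.06. The groups overlapped for all 3. Rps12-ps3 was higher in both mutant libraries in reads and FPKM (1471 and 1549 against 1256 and 1405 reads), as was Rps12 (3695 and 3545 against 3287 and 3078), with log2 fold changes of 0.20 and 0.21.

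Rows with a handful of reads also separated the groups. Rpl36-ps2 had 1 and 0 against 9 and 4 reads, and Rpl7a-ps9 had 8 and 4 against 1 and 1. They were singled out after their values were seen and are at or near the floor of 3 reads, so no fold is given.

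Several pseudogenes with ample reads differed more within a group than between groups. Rps19-ps6, in an intron of Tecpr2 on the same strand, had 77 and 175 reads in mutant against 149 and 66 in control lenses, while Rps19 stayed at 4084 and 4052 against 4342 and 3925. The 2 libraries with the higher Rps19-ps6 were mutant replicate 2 and control replicate 1, which also had the higher Xist. Rpl19-ps11, with 195 and 119 against 168 and 119 reads, and Rpl7a-ps5, with 182 and 118 against 204 and 122, were high in replicate 1 of both groups. Rpl17-ps5, with 99 and 150 against 81 and 136 reads, Rpl21-ps8, with 115 and 178 against 112 and 177, and Rpl9-ps4, with 209 and 275 against 195 and 293, were high in replicate 2 of both groups. These 6 were chosen after their values were seen, and what moved with the pools was not tested further. The larger of the 2 within-group FPKM ratios exceeded 1.5 for 8 of the 30 pseudogenes with at least 100 reads (26.7%), for 11.9% of 59 parents and for 5.29% of 7585 rows at that depth, most of which had more reads.

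Among the parents none of 62 had an adjusted p or an unadjusted p under 0.05 in limma, and with limma voom none and 5 (8.06%). Of all rows 7.43% had an unadjusted p under 0.05 in limma voom. The log2 fold change was above 0 for 43 parents, with a median of 0.09, against 8117 of all 15997 rows, with a median of 0.004. The groups were apart for 17 parents (27.4%), 15 higher and 2 lower in the mutant. Over all rows they were apart for 36.6%, 18.2% higher and 18.3% lower. Scaled by total recovered reads, the groups were apart for 29 parents (46.8%), 27 higher and 2 lower. Of all 15997 rows so scaled they were apart for 5381, 2462 higher and 2919 lower. The count of parents with a log2 fold change above 0 was 31 without mutant replicate 1 and 51 without mutant replicate 2. Of all 15997 rows 7974 and 8125 were then above 0. With each family summed, again none of 62 had an adjusted or unadjusted p under 0.05 in limma. Among all rows so summed, 0.0378% had the former and 6.30% the latter. With limma voom none and 4 (6.45%) of the family sums had one, against 14 and 1185 of all 15875 rows so summed. The sign of the log2 fold change turned for 4 parents when their pseudogenes were added: Rpl34 from -0.33 to 0.19, Rps10 from -0.11 to 0.01, Rps2 from 0.16 to -0.03 and Rps19 from 0.00 to 0.01. Rpl30, a large subunit protein with 9 pseudogenes, had the highest family value at 1.38, on 739 and 193 reads in mutant against 133 and 156 in control lenses, the highest count being that of mutant replicate 1.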

How the data were processed

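RNA of 4 pooled lens libraries was sequenced and deposited by the authors as 1 table of FPKM per gene on mm39, per the labels. Per the methods of the study, reads were aligned with HISAT2 and counted with featureCounts; strand and the placing of reads with several matches are not given in the sources used here. Whole reads were recovered from FPKM times gene length (100% of values within 0.01 of a whole number), 18561682 to 18878768 a library.

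The deposited FPKM were scaled to 0.944 to 1.05 times the recovered reads of a library. Their median ratio was 1.006 in each library, so rescaling by it left the libraries unchanged relative to each other. Rows with a mean of at least 0.1 FPKM were rescaled by median ratios and fitted on log2(FPKM + 0.1) with limma 3.58.1 (R 4.3.3, eBayes with trend, Benjamini-Hochberg over all rows). A fold change on that scale understates that of low rows. In family sums the reads of the named pseudogenes were added to the parent, over the length of the parent; pseudogenes with Gm names were left out. Shares carry Wilson intervals, and 1 share was tested by an exact permutation test. Sequences were matched by gene identifier to GENCODE transcripts of GRCm38, never by position. Members and lists were chosen with earlier results of these data known. Named pseudogenes were Rps26-ps1, the 10 with the most reads, and the 5 widest rises and 5 widest falls among those with at least 10 mean reads and no overlap of the groups. The fit was tested on simulated data with changes set only in rows of at least 100 mean reads, so it says nothing of changes in rows with fewer. Alternatives were voom, other pseudocounts, filters, scaling, covariates and leaving out libraries.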

Additional observations from a re-analysis of the deposited data

How the results depend on the processing

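In limma no pseudogene, parent or family sum had an adjusted p under 0.05 under any alternative but limma voom, where the count of pseudogenes was 1. That was Rps26-ps1, by which the subject was chosen, so nothing is read from it. The log2 fold change of Rps26-ps1 lay between -3.38 and -2.05 over the alternatives. The count of 37 pseudogenes whose groups did not overlap was 43 of 122 when scaled by total recovered reads, against 5381 of all 15997 rows. It was 23 of 65 with a mean FPKM of at least 1. That filter tests fewer rows, and of all 8378 rows so filtered the groups were apart for 3292. The count was 69 to 82 of 122 pseudogenes when 1 library was left out, where a lone library overlaps less easily. Of all 15997 rows the groups were then apart for 10381 to 11395. The count of 37 cannot change with the pseudocount, the trend or a block. With the replicate block in limma the count of called pseudogenes was 0, against 2 of all 15997 rows. An unadjusted p under 0.05 was then found for 20 of 122 pseudogenes, against 877 of all rows. Same-numbered pools shared only a number (the correlation of their deviations over rows was -0.0051), and with 2 pools a group the samples cannot be shown to pair.

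Of 50 named log2 fold changes 20, none of them past a threshold, changed sign under an alternative, nearly always on leaving out 1 library. Leaving out each library gave log2 fold changes of -0.093 to 0.42 for Rps2-ps13, -0.13 to 0.057 for Rpl17-ps10, -0.018 to 0.46 for Rpl17-ps3, -0.10 to 0.10 for Rps10-ps2, -0.15 to 0.029 for Rpl14-ps1. For parents they were -0.015 to 0.25 for Rpl10, -0.0099 to 0.12 for Rpl13, -0.025 to 0.0063 for Rpl3, -0.43 to 0.21 for Rps10, -0.075 to 0.071 for Rps19, -0.18 to 0.50 for Rps2, -0.083 to 0.21 for Rps7. For family sums they were -0.013 to 0.25 for Rpl10, -0.0083 to 0.12 for Rpl13, -0.018 to 0.26 for Rpl17, -0.092 to 0.12 for Rps10, -0.011 to 0.14 for Rps13, -0.047 to 0.063 for Rps19, -0.15 to 0.10 for Rps2, -0.042 to 0.23 for Rps7. Scaled by total recovered reads, the values were -0.027 for Rps10-ps2, -0.019 for the Rps10 family and -0.023 for the Rps19 family. The cause was not tested. The share of pseudogene reads is taken from the recovered reads within a library, so it cannot change with the pseudocount, the filter, the scaling or the covariates. The count of 13 pseudogenes whose words all occur in the parent was also 13 with words of 75 bases. Pseudogenes with no word in the parent numbered 29 with words of 31 bases and 123 with words of 75 bases. The split at 50% of words is given for 31 bases only. Rows above their parents numbered 8 by reads and 12 by FPKM.

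A count of 0 allows up to 3 reads in a library, so most pseudogene rows lie at or under what these libraries resolve, and 59 of the 122 rows tested had a mean under 10 reads.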
